A study of Mus musculus with 4 samples.

Results

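Voltage-gated sodium channels of the heart muscle cell, and proteins that bind or modify them, were described through 7 genes chosen by name from 48432 gene rows: the channel genes Scn4a and Scn7a, the auxiliary subunit genes Scn4b and Scn3b, the fibroblast growth factor homologous factor genes Fgf13 and Fgf12, and Gpd1l. Cardiomyocytes were taken by perfusion from hearts of mice that had eaten doxycycline chow for 3 days, and their polyadenylated RNA was sequenced with a stranded kit. The MHC control group held 2 libraries with the genotype label MHC, and the Rbfox2 OE group held 2 libraries with the genotype label RbFox2, in which the splicing regulator RBFOX2 was overexpressed. All mice were C57BL x FVB and ate the same diet, so both the diet and the strain are shared by the groups. The promoter that drives the transgene, the age and sex of the mice and whether a library pools animals are not given in the sources used here. The deposited table gives 1 FPKM value per gene and group (fragments scaled to transcript length and to the number of mapped fragments), combined over the 2 libraries, with the authors' lower and upper bound. With no value per library, the spread between replicates is unknown and the groups could not be tested against each other.

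The sodium channel opens on depolarisation and carries the inward current that starts the action potential and spreads it through the heart. A large alpha subunit forms the pore, and small beta subunits with 1 membrane span modify its gating and its place in the membrane. Fibroblast growth factor homologous factors stay inside the cell, bind the tail of the alpha subunit and shift the voltage at which the channel inactivates. The enzyme-like protein encoded by Gpd1l affects the amount of channel at the cell surface, and variants of the human gene are known in inherited arrhythmia.

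The labels were checked on the overexpressed gene first: Rbfox2 had 14.7 FPKM in the control, and its Rbfox2 OE level of 293 FPKM was 19.9 times that. In bulk RNA, fewer cells of a type and less RNA per cell cannot be told apart, and markers of cell types differed between the groups. Of 13 cardiomyocyte markers with an estimate, 6 were lower with separate bounds and 0 were higher, and their summed levels were 65488 FPKM (control) and 41077 FPKM (Rbfox2 OE). Macrophage and leukocyte markers were higher with separate bounds in 11 of 12 (sums 142 and 514 FPKM), fibroblast markers in 8 of 12 (508 and 1024 FPKM), endothelial markers in 4 of 12 (577 and 893 FPKM) and atrial markers in 7 of 10 (480 and 3402 FPKM). Nppa alone held 118 and 2178 FPKM of the atrial sums, and which cells carried the atrial markers was not tested. Smooth muscle and pericyte markers summed to 208 and 349 FPKM, with 3 of 10 higher and 1 lower, and 4 of 5 red blood cell markers were higher, at 56.6 and 295 FPKM. The part of these differences in the results below was not tested. Defining markers of cardiomyocytes were abundant in both groups: Myl2, the ventricular regulatory light chain, stood at 24688 and 18007 FPKM, while Myh6 and Mb carried the status HIDATA, given to loci with too many fragments, and are listed at 0.

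Of the 7 genes, 4 were lower in Rbfox2 OE and 2 were higher by the authors' bounds. Of all 48316 gene names, 2.49% were lower and 2.18% higher in this way, but 25485 of them are listed at 0 in both groups. Fgf13, Scn4b, Scn4a and Gpd1l stood at 14.9% to 38.1% of their control level, whereas Scn7a and Fgf12 stood at 203% and 378% of it. Scn3b was the 1 gene whose bounds overlapped. Every one of the 14 values has the status OK.

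**Figure D1:**
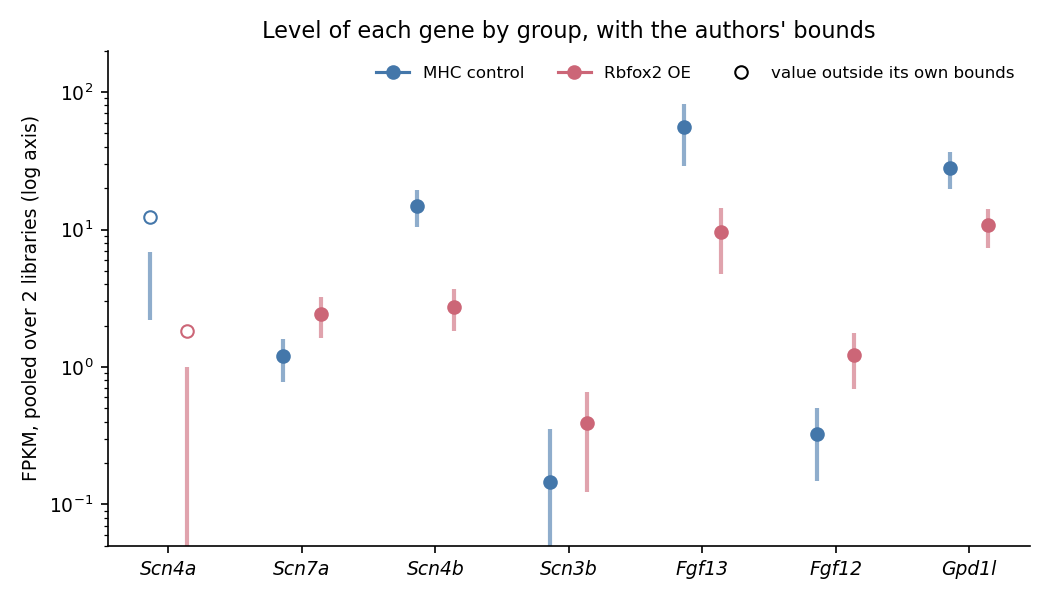
Pooled FPKM of each gene (log axis) in MHC control (blue) and Rbfox2 OE (red), with vertical lines from the authors' lower to upper bound and open circles where a value lies outside its own bounds. The bounds of Scn4b, Fgf13 and Gpd1l are apart with the control above, those of Scn7a and Fgf12 are apart with Rbfox2 OE above, those of Scn3b overlap, and lines that run to the floor of the axis have a lower bound of 0.

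Genes were compared further where the mean of the groups was at least 1 FPKM, which 5 of the 7 passed. Fgf12 and Scn3b did not. Among these 5, 4 were at least 2-fold apart, counted from the log2 ratio of Rbfox2 OE over control with 1 FPKM added to each value, against 17.0% of all 11697 genes that passed. Of all such 2-fold genes 59.0% were lower, a share that was 47.1% after the groups were rescaled without mitochondrial and the most abundant genes, while the median log2 ratio moved from -0.06 to 0.06. By separate bounds 4 of the 5 were lower and 1 was higher, against 9.33% and 6.67% of all genes. Without Scn4a, whose values lie outside their own bounds, 3 were lower. The filter passes a gene through the group where it is high, and the genes were chosen with earlier results of these data known, so these counts describe the genes and support nothing further.

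**Figure D2:**
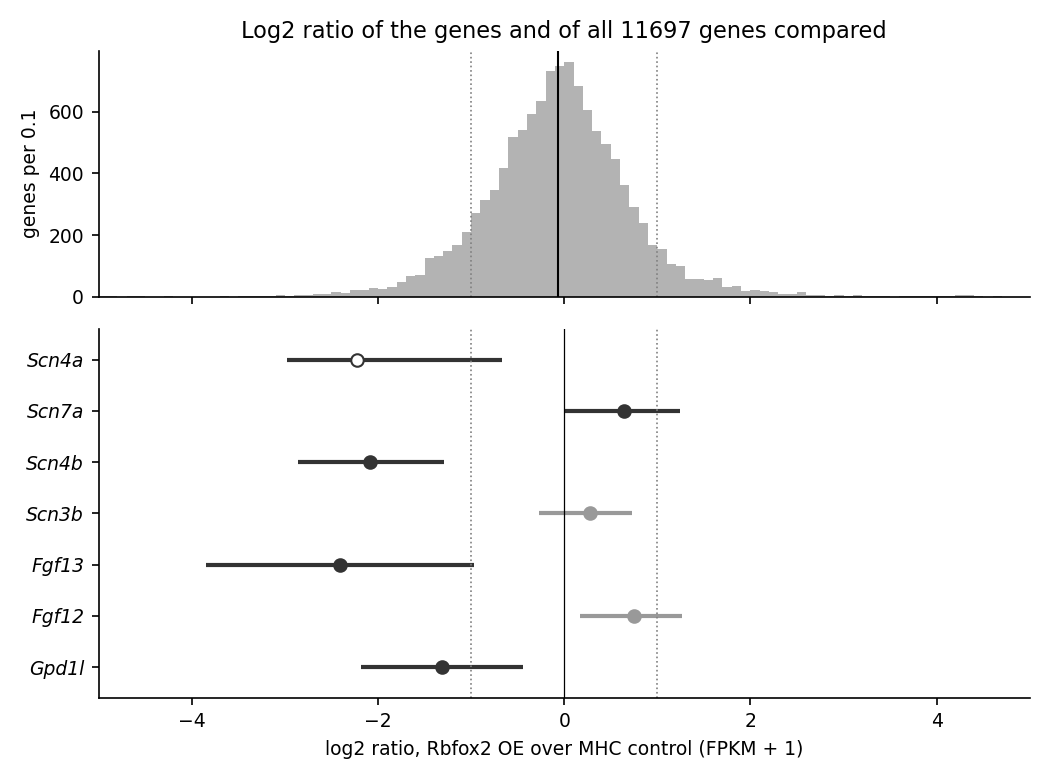
Top, log2 ratios of all 11697 genes compared in steps of 0.1, with ratios beyond 5 in size drawn at the edge and the median of -0.06 as a black line. Bottom, each gene's log2 ratio as a point and the range that its bounds allow as a line, in grey for genes under 1 FPKM on average and open for Scn4a. Dotted lines mark 2-fold. Fgf13, Scn4a, Scn4b and Gpd1l lie to the left of the lower dotted line and Scn7a between 0 and the upper one.

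Scn4b encodes the beta-4 subunit, which is disulfide-linked to the alpha subunit and can act as a blocking particle that gives resurgent current. Its control level was 14.9 FPKM (bounds 10.5 to 19.4), and its Rbfox2 OE level was 2.75 FPKM (bounds 1.82 to 3.68). The groups were separated by 6.81 FPKM between the nearest bounds. The control level was 5.44 times that of Rbfox2 OE, and the log2 ratio was -2.09, with a range of -2.86 to -1.30 from the farthest and nearest pair of bounds. Of all genes compared, 1.09% had a lower log2 ratio. In GENCODE M21, the annotation used for coordinates here, the gene (ENSMUSG00000046480.6, GRCm38 chr9:45138395-45154152, plus strand, protein-coding) has 1 transcript and overlaps no other gene. The table holds the earlier version ENSMUSG00000046480.5, with a locus that starts at 45138437, and the transcripts of that version were not examined.

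Scn3b encodes the beta-3 subunit, which binds the alpha subunit without a covalent link. It was the lowest of the 7 genes in both groups, with 0.146 FPKM for the control (bounds 0 to 0.355) and 0.388 FPKM for Rbfox2 OE (bounds 0.123 to 0.654). The value was higher in Rbfox2 OE but the bounds overlapped, and a difference was not shown at this level. The gene lies at chr9:40269217-40291618 on the plus strand, on the same chromosome as Scn4b.

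The ratio of Scn4b to Scn3b was 102 for the control, against 7.08 for Rbfox2 OE. The lower bound of Scn3b is 0 in the control, so the bounds set no upper limit on that ratio there, and the ranges of 29.5 upwards and 2.78 to 30.0 overlapped. Scn2b, which encodes the beta-2 subunit and was named after its values were seen, was under 1 FPKM in both groups, at 0.124 and 0.241 FPKM.

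Fgf13 encodes the homologous factor that is the main one of the mouse heart, and it had the highest level of the 7 genes in the control. That level was 55.5 FPKM (bounds 29.1 to 81.8), while Rbfox2 OE had 9.61 FPKM (bounds 4.77 to 14.5). The control level was 5.77 times that of Rbfox2 OE, and the nearest bounds were 14.7 FPKM apart although the bounds of this gene were wide, at 47.5% and 50.3% of the value on the upper side. The log2 ratio was -2.41 (range -3.84 to -0.96), and 0.564% of all genes compared had a lower one. The gene (ENSMUSG00000031137.17, chrX:59062145-59568071, minus strand) spans 506 kb and has 9 annotated transcripts. The isoforms of this gene are known to differ in the first part of the protein. The table gives 1 value for all of them, so which isoform was lower is not known from it. Its span holds 4 small annotated genes, of which Gm14890 has a value above 0.

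Fgf12, the close relative that is the main homologous factor of the human heart, differed the other way, from a low level. The control had 0.325 FPKM (bounds 0.148 to 0.502), and Rbfox2 OE had 1.23 FPKM (bounds 0.690 to 1.76). The bounds were apart by 0.188 FPKM, a ratio of 3.78, and the log2 ratio with 1 FPKM added was only 0.75. The locus given in the table covers 48.1% of the span of the gene in the GENCODE M21 annotation (chr16:28160098-28753068, minus strand), and the identifier version differs (9 in the table, 10 in M21), so transcripts that start farther upstream may not be part of the value.

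Within the homologous factors, Fgf13 took 96.5% of the summed level of the 4 genes in the control (57.5 FPKM) and 78.3% in Rbfox2 OE (12.3 FPKM). Fgf12 took 0.565% and 9.99%. The ratio of Fgf13 to Fgf12 was 171 in the control and 7.84 in Rbfox2 OE, with ranges from the bounds of 58.1 to 554 and 2.71 to 21.0 that did not overlap. The remaining members, named after their values were seen, had overlapping bounds: Fgf11 stood at 1.12 and 1.17 FPKM and Fgf14 at 0.579 and 0.269 FPKM. Fgf13 was the most abundant of the family in both groups.

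**Figure D3:**
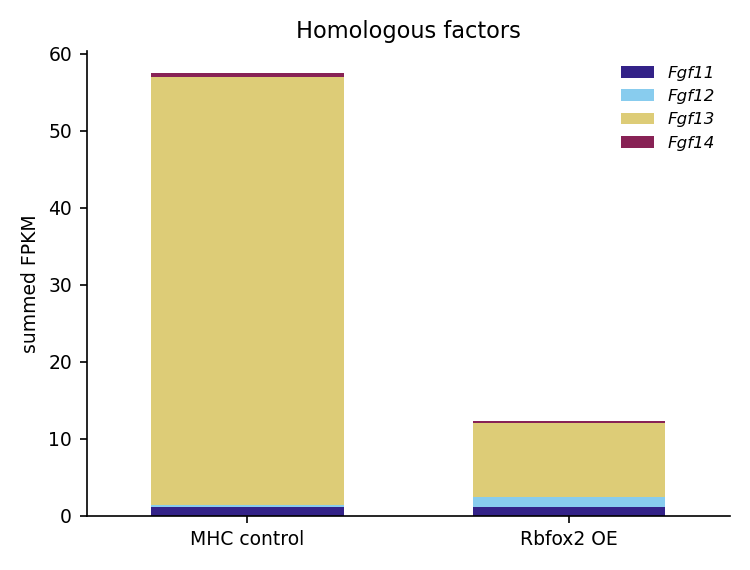
Summed FPKM of the 4 homologous factor genes in each group, as bars from 0 divided by gene. The sum is 57.5 FPKM (control) and 12.3 FPKM (Rbfox2 OE), with most of the difference in Fgf13.

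Gpd1l encodes a relative of the cytosolic glycerol-3-phosphate dehydrogenase. Its level was 28.2 FPKM for the control (bounds 19.7 to 36.8) and 10.8 FPKM for Rbfox2 OE (bounds 7.35 to 14.2). The bounds were separated by 5.52 FPKM and the control level was 2.63 times that of Rbfox2 OE. The log2 ratio of -1.32 (range -2.18 to -0.45) was the smallest in size of the 4 lower genes, and 5.35% of all genes compared had a lower one. The gene lies at chr9:114899341-114933987 on the minus strand and overlaps no other annotated gene. Its relative Gpd1, the dehydrogenase of the glycerol phosphate shuttle, was also lower by separate bounds, with 44.8 FPKM for the control and 23.0 FPKM for Rbfox2 OE. The ratio of Gpd1l to Gpd1 was 0.630 and 0.467, with ranges of 0.339 to 1.16 and 0.243 to 0.890 that overlapped.

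Scn7a encodes a channel of the alpha subunit family that is known as a sensor of sodium concentration rather than as a voltage-gated channel, and it occurs in glia and other cells beside muscle. Its control level was 1.19 FPKM (bounds 0.776 to 1.61) and its Rbfox2 OE level 2.42 FPKM (bounds 1.62 to 3.22). The bounds were apart by 0.0135 FPKM only, so this separation is the narrowest of the 6. The ratio was 2.03 and the log2 ratio 0.64 (range 0.01 to 1.25), and 14.6% of all genes compared had a higher one. The gene lies at chr2:66673425-66784914 on the minus strand. Beside this, of 14 markers of glia and neurons 2 had a mean of at least 1 FPKM and 0 had separate bounds, and the summed levels of all 14 were 10.8 and 15.8 FPKM. Sox10, which defines peripheral glia, had 0.278 FPKM (control) and 0.631 FPKM (Rbfox2 OE), with overlapping bounds. Of the 14, 2 were listed at 0 for Rbfox2 OE, among them the neuronal marker Snap25. The fibroblast and other markers given above were higher together with Scn7a, and their part in its value was not tested. The ratio of Scn4b to Scn7a was 12.5 in the control (range 6.53 to 25.0) and 1.14 in Rbfox2 OE (range 0.564 to 2.27).

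Scn4a encodes the pore-forming subunit best known from skeletal muscle. The row holds 12.2 FPKM for the control and 1.82 FPKM for Rbfox2 OE, a log2 ratio of -2.23, and each value lies above its own upper bound: the bounds are 2.18 to 6.86 FPKM and 0 to 0.994 FPKM. The control value is 1.78 times its upper bound and the Rbfox2 OE value 1.84 times. Among genes whose control lower bound is above 0, 99.9% have the control value at the middle of its bounds within 0.1%, so the row of Scn4a is an exception. Both the values and the bounds are lower in Rbfox2 OE, and the bounds of the groups do not overlap.

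The locus that the table prints for Scn4a, chr11:106349455-106353288 on the minus strand, is 11.0% of the annotated gene, which spans chr11:106318592-106353288. It has the same first and last base as Scn4a-202, an annotated transcript of 443 bases without a coding region. The protein-coding transcript Scn4a-201, of 6598 bases, lies wholly outside that locus at chr11:106318592-106349389, and 65 bases separate the transcripts. The same arrangement was counted over all genes, so the 19 genes below, and the 7 of them outside their bounds, include Scn4a itself. Of 19 genes whose M21 transcripts form 2 or more groups that do not overlap on the genome, 7 (36.8%) have a value outside its own bounds in at least 1 group. Of 48034 genes whose transcripts form 1 group, 7 (0.0146%) do. Whether the bounds of Scn4a belong to the short transcript and the value to both was not tested, and its level in the order below is uncertain to that extent.

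**Figure D4:**
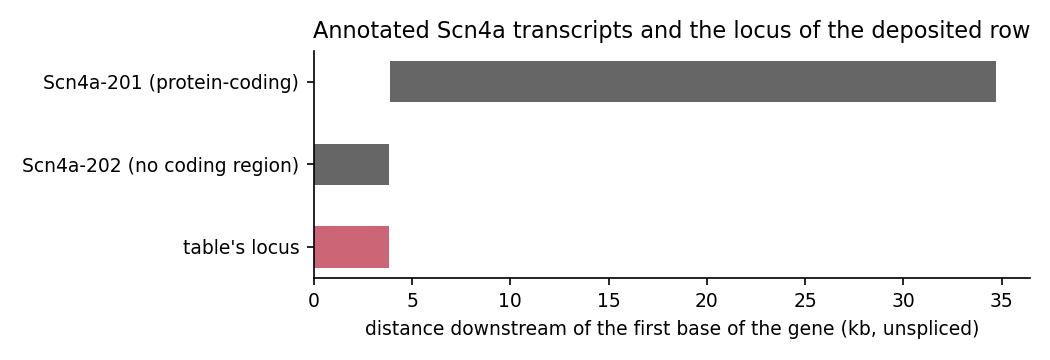
Span of the 2 annotated Scn4a transcripts (grey) and of the locus in the deposited row (red), as distance in kb along the gene from its first base, introns included. The locus covers the same 3.83 kb as Scn4a-202 and none of Scn4a-201, which spans 30.8 kb.

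FPKM is scaled to transcript length, so levels may be ordered within a group. In the control the order was Fgf13, Gpd1l, Scn4b, Scn4a, Scn7a, Fgf12 and Scn3b. The bounds of Fgf13 and Gpd1l overlapped, as did those of Fgf12 and Scn3b; Gpd1l and Scn4b were apart, and the value of Scn4a lay inside the bounds of Scn4b. In Rbfox2 OE the order was Gpd1l, Fgf13, Scn4b, Scn7a, Scn4a, Fgf12 and Scn3b. Gpd1l and Fgf13 overlapped and had changed places, Scn4b and Scn7a overlapped, and Scn4a, whose value lay above its bounds, stood between Scn7a and Fgf12. Fgf12 and Scn3b were apart there, whereas they overlapped in the control. The highest and the lowest gene differed between 55.5 and 0.146 FPKM in the control and between 10.8 and 0.388 FPKM in Rbfox2 OE, a narrower spread of levels.

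RBFOX2 binds the sequence UGCAUG in RNA. Because this protein was the one overexpressed, TGCATG was searched on the sense strand of the longest protein-coding transcript of each gene in GENCODE M21. It occurred in the 3′ UTR of 5 of the 7, against 35.1% of 10824 genes compared, a share not matched for length. Scn4a and Fgf13 held 2 copies each there, which 4.99% and 7.95% of genes with a 3′ UTR of like length (0.8 to 1.25 times) reach, and the copies of Fgf13 begin 1173 and 1207 bases after the stop codon. Scn4b, Scn7a and Fgf12 held 1 copy each, as 71.5%, 49.5% and 54.0% of genes with a 3′ UTR of like length hold at least 1. Scn3b held 1 copy, in the coding region only, and Gpd1l held 0 in its transcript. The coding regions of Scn4a, Scn7a and Fgf12 also held 3, 2 and 1 copies. Of the genes compared, 55.5% hold TGCATG somewhere in the transcript. Of genes with a 3′ UTR of like length to those of Scn3b and Gpd1l, 65.8% and 65.3% hold at least 1 copy in it. The 26 bases around each copy in a 3′ UTR are shown as the letters these counts rest on; capitals mark TGCATG and coordinates are GRCm38.
Scn4a, chr11:106319632-106319657, minus strand: gcatcaaggcTGCATGcagagttggg
Scn4a, chr11:106319082-106319107, minus strand: atctctagatTGCATGgatgggtcac
Fgf13, chrX:59062345-59062370, minus strand: tcatatctgtTGCATGgaagaaagtt
Fgf13, chrX:59062311-59062336, minus strand: ggcatagagtTGCATGatatgtaaga
Scn4b, chr9:45153905-45153930, plus strand: gactatcttaTGCATGgtttagtcct
Scn7a, chr2:66674532-66674557, minus strand: ccatagcaggTGCATGctatcattaa
Fgf12, chr16:28161811-28161836, minus strand: gggaccaactTGCATGaagaaaagtt

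Copies were present in genes that were lower (Scn4a, Fgf13, Scn4b) and in genes that were higher (Scn7a, Fgf12), and Gpd1l was lower without a copy. The copies of Scn4a lie in Scn4a-201, outside the locus of the deposited Scn4a row, so its value may not measure the transcript that holds them. Over all genes compared, TGCATG was in the 3′ UTR of 37.2% of genes lower by separate bounds, 31.3% of genes higher and 35.1% of genes with overlapping bounds. The median 3′ UTR lengths of these groups were 1224, 897 and 1155 bases. A match is a description of the letters only, and introns, where RBFOX2 is known to act on splicing, were not searched.

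The stretch of 250 bases before each start site in RefSeq (GRCm38.p6) was read for 6 of the 7 genes, with 12 start sites in all, 4 each in Fgf13 and Fgf12. Motifs of 4 factor families were searched on both strands. The letters AGATAA stand for the zinc finger factors of heart muscle named after that motif. The letters GGTGTG stand for T-box factors. The letters TGACGTCA are the cyclic AMP response element, and the MEF2 motif was searched as its consensus. No match overlapped another. In 9 of the 12 windows there was no match, among them those of Scn4a, Scn4b and Gpd1l. Scn7a held 1 AGATAA, which 9.99% of 32851 such windows hold. The MEF2 motif, present in 2.92% of all windows, occurred in 2, and these were the farthest upstream start of Fgf13 and the farthest upstream start of Fgf12, 152 and 155 bases before the start. The T-box motif and the cyclic AMP response element, present in 16.3% and 1.55% of windows, had no match. The MEF2 windows are shown since they are a feature that both homologous factor genes share although their levels differed in opposite directions; capitals mark the match, and both starts lie outside the locus that the table gives for the gene.
Fgf13, chrX:59585573-59585822, minus strand: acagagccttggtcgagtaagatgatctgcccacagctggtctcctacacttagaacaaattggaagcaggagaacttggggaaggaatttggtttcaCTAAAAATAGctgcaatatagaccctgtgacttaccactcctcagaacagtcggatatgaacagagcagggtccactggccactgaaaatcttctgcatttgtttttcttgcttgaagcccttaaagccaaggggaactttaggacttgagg
Fgf12, chr16:28753244-28753493, minus strand: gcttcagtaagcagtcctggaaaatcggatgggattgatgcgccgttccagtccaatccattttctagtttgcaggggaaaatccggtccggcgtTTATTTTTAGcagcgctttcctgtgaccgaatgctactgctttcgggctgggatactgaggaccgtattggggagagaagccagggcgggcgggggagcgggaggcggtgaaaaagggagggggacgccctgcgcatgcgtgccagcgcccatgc

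Proteins that anchor or modify the channel were read from a list of 20 genes, all of which passed the filter. By separate bounds 7 were lower and 0 were higher, against 9.33% and 6.67% of all genes compared. The median log2 ratio was -0.68, against -0.06 over all genes compared. Ank2, the ankyrin that places pumps and exchangers in the membrane, had 86.4 FPKM (bounds 26.4 to 146) for the control and 9.30 FPKM (bounds 1.97 to 16.6) for Rbfox2 OE. Ank3, the ankyrin that binds the sodium channel at the intercalated disc, stood at 22.5 and 5.56 FPKM, so the control had 4.05 times the level of Rbfox2 OE. Ptpn3, a tyrosine phosphatase that binds the channel tail, stood at 11.6 and 3.77 FPKM. Cxadr, a junction protein of the intercalated disc, stood at 10.9 and 4.37 FPKM, and Gja1, the main ventricular connexin, at 100.3 and 49.9 FPKM. The other 13 had overlapping bounds, among them the ubiquitin ligase Nedd4l (3.42 and 3.46 FPKM) and the channel trafficking factor Rangrf (43.2 and 42.1 FPKM), which were named after their values were seen.

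The whole sodium channel subunit family of the table has 13 genes by name, of which 5 passed the filter. By separate bounds 3 were lower and 1 was higher, against 9.33% and 6.67% of all genes compared, and 1 overlapped. Scn4b and Scn4a are among the lower ones and the higher one is Scn7a, so these counts repeat genes described above. The values of Scn4a lie outside their own bounds. Of the 13, 3 were listed at 0 for the control and 2 for Rbfox2 OE. A list of 7 genes around glycerol 3-phosphate includes Gpd1l itself and the lipid kinase Agk. In that list 6 passed the filter. By separate bounds 4 were lower (Agk, Gpd1l, Gpd1 and Gk) and 0 were higher, against 9.33% and 6.67% of all genes compared. The median log2 ratio was -0.91. Gk, the glycerol kinase, stood at 7.96 and 3.87 FPKM, and Agk, a mitochondrial lipid kinase, at 7.88 and 2.44 FPKM.

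Other genes of sodium transport showed both directions. Of 10, 4 were lower and 1 was higher by separate bounds, against 9.33% and 6.67% of all genes compared. The median log2 ratio was -0.49. Slc8a1, the sodium-calcium exchanger, had 100.5 FPKM for the control and 14.3 FPKM for Rbfox2 OE, a log2 ratio of -2.73. Slc4a4, a sodium bicarbonate cotransporter, stood at 7.78 and 2.80 FPKM, and Fxyd1, the phospholemman that regulates the pump, at 751 and 395 FPKM. The 1 higher gene was Fxyd5, a pump regulator also found outside muscle, at 21.3 and 80.1 FPKM. Beside these lists, the cardiomyocyte markers had a median log2 ratio of -0.70, with Pln at -2.42, Ryr2 at -2.39 and Tnni3 at -1.01. These are among the lowest of the list and were named after their values were seen. The bounds overlapped for 7 of its 13 genes with an estimate, among them Ttn, which alone was above 0, at 0.60. Of that list, Pln and Ryr2 alone had log2 ratios as low as those of Scn4a and Scn4b.

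**Figure D5:**
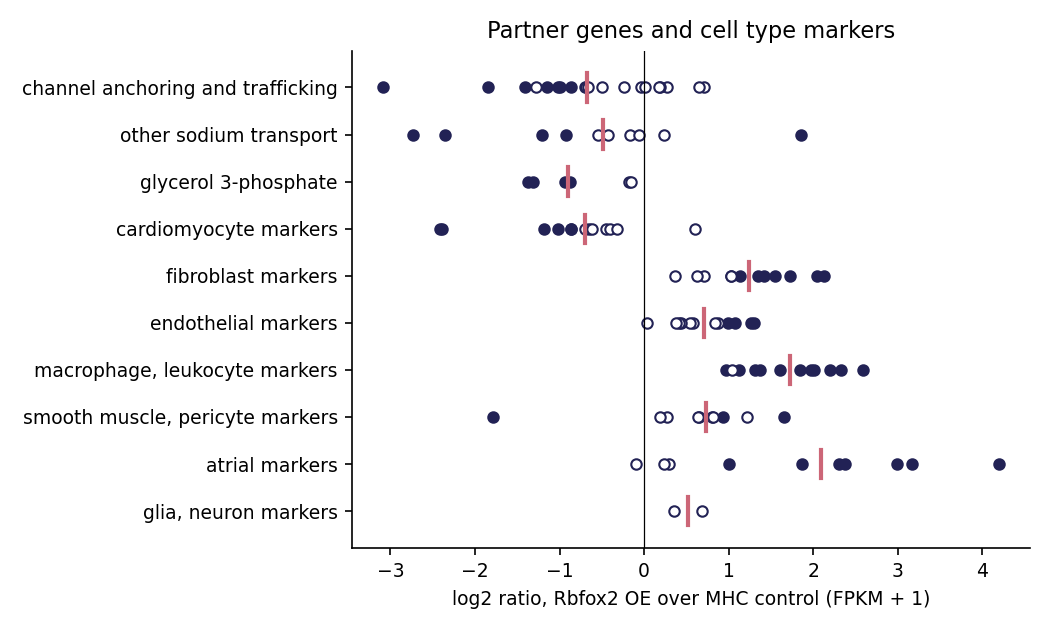
Log2 ratio of each gene with a mean of at least 1 FPKM in the partner lists and cell type marker lists, filled where the authors' bounds are separate and open where they overlap, with a red bar at the median of each list. The lists of anchoring or modifying proteins, other sodium transport and glycerol 3-phosphate have medians of -0.68, -0.49 and -0.91. These 3 medians lie on both sides of the -0.70 of the cardiomyocyte markers, and Actn2 is in both the anchoring and the cardiomyocyte list. The sodium channel subunit family and the homologous factors are not among these 3 lists. Their medians are lower, at -2.09 (5 genes) and -1.19 (2 genes), and they hold genes described above. The markers of other cell types have medians above 0.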

How the data were processed

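The authors' deposited table holds FPKM values, 1 per gene and group, with lower and upper bounds in FPKM whose level is not stated. Per the submitters' processing notes, which give no role or order, the tools were bcl2fastq 2.17.1.14, Trimmomatic, STAR 2.4.2a, Picard 1.119, HTSeq, DESeq2 and Cuffdiff 2.2.1, and the builds GRCm38 and mm10. The number of fragments is unknown, so no counting interval was given. For 110 names held by several rows, the rows were added up. Log2 ratios of Rbfox2 OE over MHC control had 1 FPKM added to each value as pseudocount, so changes of low genes are understated, and genes whose mean was under 1 FPKM were left out of counts over all genes. The planned limma fit needs values per library, and the fallback without a test was used. Identifiers of 48053 rows (99.2%) matched GENCODE M21, from which coordinates and transcripts were taken. Whether the libraries of a group came from separate animals is not given in the sources used here.

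The members and lists were chosen with earlier results of these data known. Named were all members, Rbfox2, up to 6 genes per partner list with separate bounds, adjacent genes that passed the same minimum, and markers; others are marked in the text. Some genes are not reported here. The calculations were tested on data simulated from genes with at least 1 FPKM in the control, without a pseudocount. That test therefore covers neither the pseudocount nor lower genes. Its required outcome concerned the 2-fold share and the median log2 ratio, not separate bounds. Alternatives covered the pseudocount, the filter, the fold threshold, status, own bounds and 2 scalings. Python 3.11.15, pandas 2.3.3 and numpy 2.4.6 were used.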

Additional observations from a re-analysis of the deposited data

How the results depend on the processing

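No paired analysis was possible because no value per library was at hand, only 1 for each group, and leaving out each library was not run for the same reason. The log2 ratios of the 7 genes kept their sign under both other scalings. A pseudocount added to both groups cannot change a sign, so both other pseudocounts bear on size only. With a pseudocount of 0.1 the log2 ratio of Scn3b was 0.99 and that of Fgf12 was 1.64. A smaller pseudocount shrinks low genes less. The lowest and highest log2 ratios were -2.52 and -2.05 for Fgf13, -2.40 and -1.36 for Scn4b, -2.68 and -1.34 for Scn4a, -1.39 and -1.08 for Gpd1l, and 0.26 and 0.96 for Scn7a. The count of genes higher by separate bounds, 1, was 2 without a filter, when Fgf12 entered, and 0 with a minimum mean of 5 FPKM, which removed Scn7a. At 1.5-fold 1 gene was higher, Scn7a. Rescaling without mitochondrial and the 10 most abundant genes moved the median of all genes from -0.06 to 0.06 and the lower share of 2-fold genes from 59.0% to 47.1%; the 4 lower genes stayed lower. The depth behind the values is unknown.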

Other observations

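The genes that lie next to the 7 on the chromosome were read to see whether a neighbour differed with them. Of 14 adjacent genes, 5 passed the minimum mean of 1 FPKM, and the bounds of all 5 overlapped between the groups. Over all 14, 1 had separate bounds: Tmprss4, 18.6 kb from Scn4b and named after its values were seen, was lower like Scn4b, at 0.557 FPKM (control, bounds 0.180 to 0.935) and 0.0351 FPKM (Rbfox2 OE, bounds 0 to 0.154). Beside Gpd1l, Cmtm8 (55.2 kb away) had 7.83 FPKM (control) and 3.62 FPKM (Rbfox2 OE), and Osbpl10 (44.6 kb away) at 1.28 and 0.960 FPKM. Gramd1b lies 1.61 kb from Scn3b and stood at 6.59 FPKM (bounds 0 to 13.4) and 1.38 FPKM (bounds 0.116 to 2.65). Scn3b itself was higher in Rbfox2 OE with overlapping bounds. Beside Fgf12, Mb21d2 (73.1 kb away) stood at 3.11 and 2.93 FPKM and Ccdc50 (708 kb away) at 9.19 and 16.1 FPKM. The genes next to Scn4a, Scn7a and Fgf13, and the other one next to Scn4b, had means under 1 FPKM and bounds that overlapped.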
